A study of Mus musculus with 19 samples.

Results

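In STUS/B6 hybrid testes, the B6 allele of PRDM9 controlled a large set of recombination hotspots at which most DMC1 reads, the mark of double-strand breaks (DSBs), came from the STUS chromosome, and this set of 2813 autosomal hotspots is described here. They were chosen by 2 properties in the DMC1 data of that hybrid: the hotspot was assigned to the B6 allele, and the B6 homolog gave fewer than 25% of its DMC1 reads. The full set held 18069 hotspots, 17309 of them autosomal, and 6115 of those were assigned to the B6 allele. A share of reads from the B6 chromosome, called the B6 fraction here, was listed for 5588 of these 6115, and the 2813 made up 50.3% of the 5588 (95% Wilson interval 49.0 to 51.7%). Over autosomal hotspots of any allele, 31.0% of those with a B6 fraction were below the limit.

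DMC1 single-stranded DNA sequencing (SSDS) was done on whole testes of adult male F1 hybrids, with 1 library for each of 5 genotypes. STUS/B6 came from a cross of STUS (STUS/Jpia, M. m. musculus) and C57BL/6J (B6, M. m. domesticus) and carried the wild-type Prdm9 alleles of both strains. Its sample labels write the cross as B6xSTUS and the genotype as B6/STUS, whereas the study's text also writes STUSB6F1, so the direction of the cross is uncertain. B6/SPRT (B6xSPRETUS in the labels) came from B6 and SPRET/EiJ, a strain of M. spretus, and carried the B6 and SPRET alleles. The 3 genotypes without the B6 allele were STUS/Hum, Hum/SPRT and CAST/SPRT, in which an engineered humanized or CAST allele stood in its place on the B6 side. H3K4me3 ChIP of the B6/SPRT testes, with 2 ChIP and 2 input samples, was listed as 1 pooled value per hotspot. With 1 library per genotype there was no replicate spread, so no difference below was tested. Intervals cover the counting of hotspots only, and the agreement over the 19 autosomes describes each library.

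PRDM9 is a meiotic zinc-finger protein that binds DNA at sequence motifs, trimethylates histone H3 at lysine 4 (H3K4me3) on nearby nucleosomes and so marks where SPO11 makes DSBs. The recombinase DMC1 loads onto the single-stranded ends of a resected break, and its precipitation locates breaks in whole testis. Because a break is repaired from the uncut homolog, a variant that weakens PRDM9 binding tends to be spread by repair, and over generations motifs are lost from the lineage in which an allele acts. A hotspot eroded on B6 chromosomes but intact on a chromosome with another history is then cut mainly on that other chromosome in a hybrid. In these data, how often a break forms and how long DMC1 stays on it cannot be told apart, nor can the number of cells and the signal per cell.

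Promoter windows, from 250 bases before to 50 after an annotated gene start, held the centers of 5 of 2698 hotspots of the set on the autosomes these windows cover (0.185%), where the background over all hotspots there was 0.380%. Matched B6-allele hotspots (B6 fractions of 25 to 75%) had 7 of 2063 (0.339%), and all of these counts are small. The RefSeq sequence (GRCm38.p6, the B6 reference) around 4 of the 5 is shown 5′ to 3′ on the strand of the gene, 81 bases each, to place these centers at base level. Capitals mark the 11 bases around the listed hotspot center, which is a called position and not a PRDM9 motif. These are the letters of the B6 chromosome, the homolog that gave at most 2.02% of the DMC1 reads there.
Gm31493: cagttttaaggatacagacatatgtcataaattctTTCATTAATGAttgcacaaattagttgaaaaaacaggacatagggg
Spata13: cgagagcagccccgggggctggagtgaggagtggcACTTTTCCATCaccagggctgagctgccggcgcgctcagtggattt
Rgs3: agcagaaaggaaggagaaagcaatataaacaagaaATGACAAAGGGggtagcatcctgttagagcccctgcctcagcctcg
Gm9946: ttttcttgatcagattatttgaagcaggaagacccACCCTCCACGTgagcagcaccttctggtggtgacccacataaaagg

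The window of Gm31493 was chr1:160025842-160025922 on the minus strand, where the hotspot had a DMC1 signal of 390 and a B6 fraction of 1.80%. The Spata13 window was chr14:60732823-60732903 (plus), with a signal of 273 and a B6 fraction of 0.485%. Rgs3, which encodes a regulator of G-protein signaling, had its window at chr4:62559724-62559804 (plus), with a signal of 72.2 and a B6 fraction of 0%. The Gm9946 window was chr6:117559595-117559675 (plus), with a signal of 65.4 and a B6 fraction of 2.02%. Base composition differed widely among the 4, from 30.9% G and C at Gm31493 to 65.4% at Spata13. All 4 were also called in B6/SPRT, as were 72.2% of the set and 21.4% of all autosomal hotspots. The remaining one, on chromosome 14, was weak (signal 15.1) and was not called there. Its center lay 15 bases before the start of Gm31577, so that 81 bases around it would run past the start, and no sequence is shown.

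The hotspots were strong and mostly far more one-sided than the rule required. DMC1 signal, the unitless strength given by the authors' caller, ran from 7.64 to 1064 with a median of 137 (quartiles 53.4 and 275). The 2130 matched B6-allele hotspots had a median of 37.5 (21.1 and 77.7), and the 645 B6-allele hotspots cut mainly on B6 had 29.3. The median was higher than that of matched hotspots on 19 of 19 autosomes and 3.65 times as high over all. The 4411 STUS-allele hotspots cut mainly on B6, which mirror the set, had a median signal of 86.3. Together the 2813 hotspots held 29.5% of all autosomal DMC1 signal and 75.1% of the signal of B6-allele hotspots with a B6 fraction. Within the set, the 568 strongest hotspots held as much signal as the other 2245, a split that was not computed for other hotspots.

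The median B6 fraction was 1.96% (quartiles 0.703 and 6.45%), so most members were far from the limit that chose them. Multiplying signal by the share of reads from each homolog gave a median of 131 on the STUS side and 2.53 on the B6 side. Matched hotspots had 17.7 and 19.1. Set against matched hotspots, the STUS side of this set was stronger and the B6 side was weaker, a description only, since the rule used the fraction. At the limit itself, the closest members were at chr7:11734535 (B6 fraction 24.8%, signal 193) and chr1:152755532 within Apobec4 and Rgl1 (24.8%, 147). Just outside, 26 B6-allele hotspots were listed at exactly 25%, with signals of 9.68 to 47.8 and a median of 17.3. The strongest of these 26 were at chr10:40289537 within Amd1 (47.8) and chr7:67379528 (46.9).

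Strength and one-sidedness went together, in values that both depend on the number of reads. The 1972 hotspots with B6 fractions below 5%, 70.1% of the set, had a median DMC1 signal of 188 and held 85.2% of its signal. The 841 hotspots at 5 to 25% had a median of 50.4, and the ratio of the medians was 3.73 (2.10 to 6.47 over autosomes). In finer steps the median signal was 301 for fractions above 0 and up to 1% (654 hotspots), 143 up to 5% (1065), 54.6 up to 10% (367), 56.5 up to 15% (208), 46.6 up to 20% (146) and 43.1 below 25% (106). The last 4 steps, from 5% upward, lay between 43.1 and 56.5. The 267 hotspots listed at exactly 0% broke the order, with a median of 76.3. The number of reads behind each fraction is not listed, so a fraction of 0 cannot be given an upper limit. A small fraction above 0 needs many reads, so weak hotspots could hardly enter the step up to 1%. The lowest signal there was 53.4, against 7.64 to 13.1 in the other steps. The height of that step and the rho above 0 are therefore partly set by read number. Spearman's rho between fraction and signal was -0.449 over the 2813 hotspots (-0.576 to -0.323 within autosomes) and -0.633 over the 2546 above 0, both values coming from the same reads of 1 library.

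**Figure D1:**
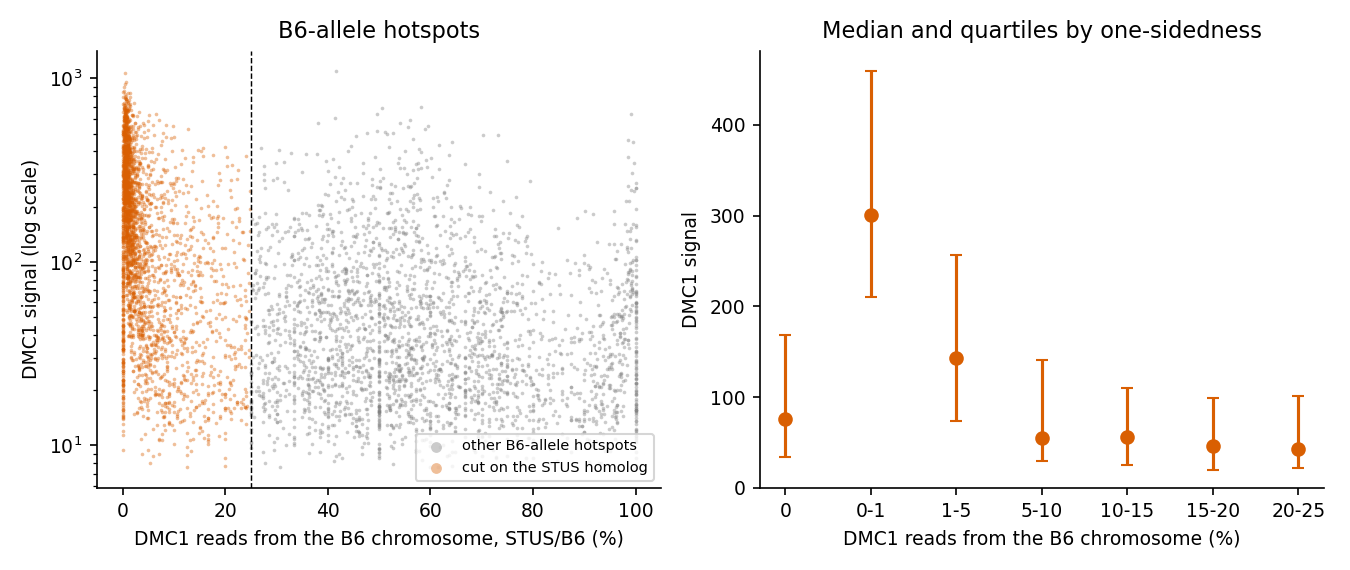
Left, DMC1 signal (log scale) against the percentage of DMC1 reads from the B6 chromosome in STUS/B6, 1 point per autosomal B6-allele hotspot, with hotspots cut on the STUS homolog in orange, the others in gray and the 25% limit dashed. Right, median signal with quartile bars of the orange hotspots in 7 steps of B6 fraction, highest at 301 for fractions above 0 and up to 1% and 43.1 to 56.5 in the last 4 steps.

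The 5 strongest hotspots had B6 fractions of 0.279 to 0.554%. The strongest of all, at chr3:134982424, lay 17.0 kb from the pseudogene Gm4860 and had a signal of 1064. The second, at chr19:20796501, lay within Tmc1, which encodes a mechanotransduction channel of inner-ear hair cells, and had a signal of 949. The others were at chr5:139598145 (937), 49.97 kb from the homeobox gene Uncx, at chr3:65655089 (896), 4.20 kb from Mir8120, and at chr15:7652535 (854), 90.2 kb from Gm41264. All 5 were called in B6/SPRT, as were 72.2% of the set and 21.4% of all autosomal hotspots. In B6/SPRT 4 of the 5 had signals of 318 to 729 and the Tmc1 hotspot had 54.8.

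The set was spread over all autosomes. Counts ran from 82 on chromosome 19 to 209 on chromosome 2 (median 150) and followed the length of the chromosome covered by hotspots (rho 0.891 over 19 autosomes). Density was 1.18 per Mb over all, lowest on chromosome 1 (0.942) and highest on chromosome 16 (1.44). The share of B6-allele hotspots in the set ran from 44.0% on chromosome 1 (39.2 to 48.8%) to 56.4% on chromosome 18 (49.5 to 63.0%). Chromosome 1 was thus lowest in both density and share, and also in the share of B6-allele signal, 66.5% against up to 85.7% on chromosome 19. Median signal per autosome stayed between 116 (chromosome 2) and 178 (chromosome 17).

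**Figure D2:**
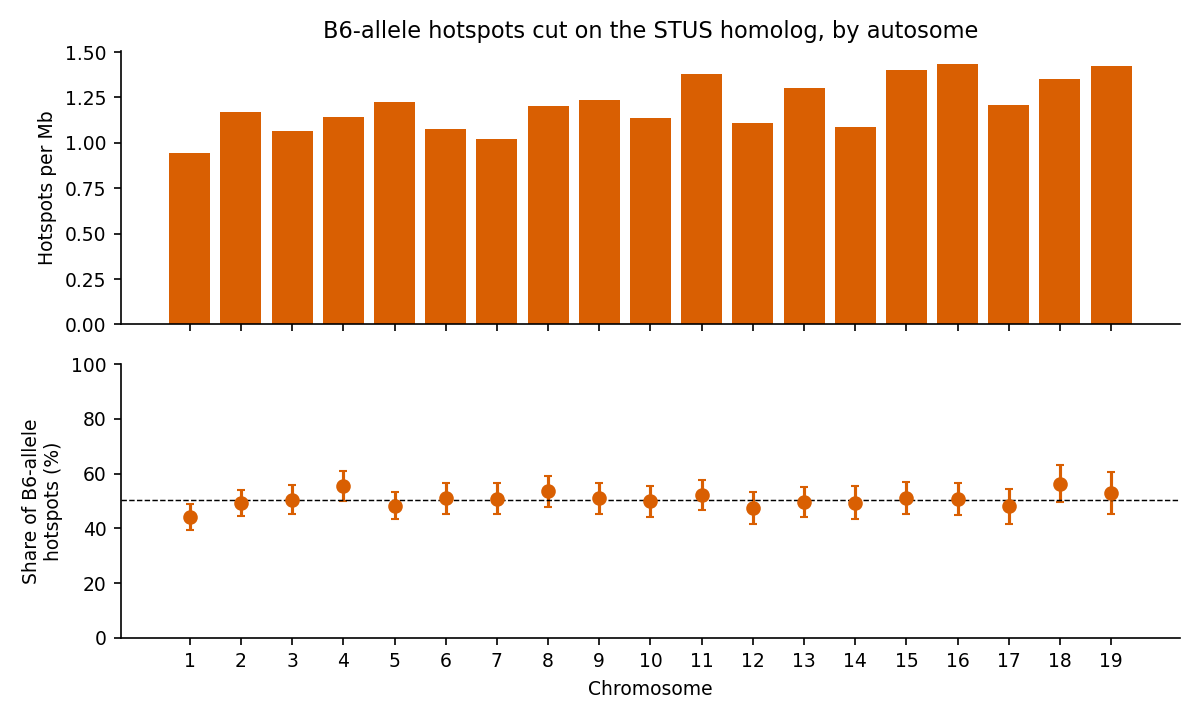
Hotspots of the B6 allele cut on the STUS homolog per Mb (top, bars) and as a percentage of B6-allele hotspots with a B6 fraction (bottom, points with 95% Wilson intervals), by autosome, with the share over all autosomes, 50.3%, dashed. Density ranged from 0.942 to 1.44 per Mb, and the share was lowest on chromosome 1 at 44.0%.

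Both chromosome ends had higher shares of the set than the middle, most clearly the distal end. Each autosome was cut, between its first and last listed hotspot, into 5 equal stretches from the centromeric end. Of B6-allele hotspots, 53.1% (50.1 to 56.0%) in the first and 56.2% (53.4 to 59.0%) in the last belonged to the set. The 3 stretches between had 45.7, 47.3 and 48.7%. The median signal did not follow this shape, at 147 in the first stretch, 136 to 141 in the middle and 125 in the last.

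Spacing was wide and uneven, which was not particular to the set. The distance to the next hotspot of the set had a median of 498 kb (quartiles 195 and 1096 kb). It ran from 631 bp to 10330 kb, and its SD was 1.22 times its mean. From 1 matched B6-allele hotspot to the next, the median was 654 kb and the SD 1.12 times the mean. For STUS-allele hotspots cut mainly on B6 these were 313 kb and 1.27. Distances to the nearest hotspot look to both sides, so they cannot be set against distances to the next one. The nearest hotspot of any kind was a median of 40.9 kb away, the nearest STUS-allele hotspot 80.8 kb and the nearest matched B6-allele hotspot 376 kb. Another hotspot of the set lay within 50 kb for 453 (16.1%), within 10 kb for 122 (4.34%) and within 1 kb for 4. After a hotspot of the set, the next B6-allele hotspot along the chromosome was again of the set in 1488 of 2803 cases (53.1%, 51.2 to 54.9%), and after any other B6-allele hotspot in 1317 of 2766 (47.6%, 45.8 to 49.5%).

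**Figure D3:**
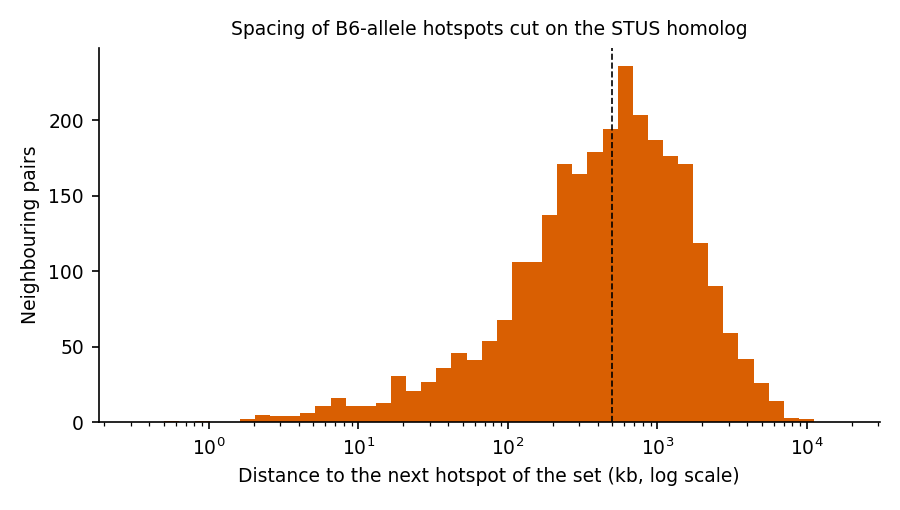
Histogram of the distance from each hotspot of the set to the next on the same autosome (kb, log scale, 2794 neighboring pairs), with the median of 498 kb dashed. The quartiles are 195 and 1096 kb, and a tail of close pairs reaches 631 bp.

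The closest pair lay 631 bp apart within Thrap3, a gene for a protein of mRNA splicing and transcription, at chr4:126178754 (signal 81.6, B6 fraction 0.402%) and chr4:126179385 (260, 0.348%). Both were matched by the same B6/SPRT hotspot, which lay between them, so 1 site may be counted as 2. Outside chromosome 18, which was not searched, the densest 1 Mb (the first, if several tied) was on chromosome 14. There chr14:119073966-120038379 held 8 hotspots of the set among 9 B6-allele hotspots. Their signals were 15.8 to 180 with a median of 102, lower than that of the set. Of the 8, 6 were called in B6/SPRT, near the 72.2% of the whole set (21.4% over all autosomal hotspots).

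The set lay in genes about as often as other hotspots did. Of the 2813 centers, 1718 (61.1%, 59.3 to 62.9%) lay within an annotated gene, against a background of 59.7% over all autosomal hotspots and 61.5% for matched B6-allele hotspots. Within 1 kb of a gene start lay 47 of 2698 outside chromosome 18 (1.74%, 1.31 to 2.31%), against a background of 2.19%. The median signal was 146 within genes and 123 outside them.

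B6/SPRT shares the B6 allele and the B6 chromosomes with STUS/B6 but has SPRET in place of STUS. It shows whether hotspots were called at the same positions with another partner chromosome. A position that was not called may still have been cut below the caller's threshold, and the study reports that SPRT PRDM9 dominated B6 PRDM9 in this hybrid. Of the 2813 hotspots, 2031 (72.2%, 70.5 to 73.8%) had a B6/SPRT hotspot centered within 500 bp, where 21.4% of all autosomal STUS/B6 hotspots had one. The share was 45.4% for matched B6-allele hotspots, 36.3% for those cut on B6 and 0.553% for STUS-allele hotspots. It was higher in the set than in matched hotspots on 19 of 19 autosomes, at 67.8 to 79.3% against 30.8 to 59.6%. This order held for all signals together and was the other way among the strongest hotspots. The PRDM9 allele was assigned by comparison among mice of different alleles, and whether B6/SPRT was one of them is not given in the sources used here. Differences between alleles in sharing may therefore be built in.

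Positions agreed closely. Centers in both libraries were a median of 55 bp apart (quartiles 18 and 131 bp), and 1360 of the 2031 lay within 100 bp. In B6/SPRT, 2011 of the 2031 were again assigned to the B6 allele, 20 to none and 0 to SPRET. The shared positions made up 48.8% of the 4122 autosomal B6-allele hotspots of B6/SPRT. Signals of the libraries had a rho of 0.675 over the 2031 shared hotspots, which share the allele and the B6 chromosome.

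Libraries without the B6 allele had few hotspots at these positions. STUS/Hum had 5 of 2813 (0.178%, against a background of 21.8%), Hum/SPRT 19 (0.675%, background 1.33%) and CAST/SPRT 10 (0.355%, background 5.23%). Matched B6-allele hotspots had 0.376, 0.939 and 0.376%, and those cut on B6 had 0.310, 0.620 and 0.310%. Low shares were thus common to B6-allele hotspots and not particular to the set. Most of the STUS/Hum background came from STUS-allele hotspots, of which 40.2% were called there. In any of the 3, 22 hotspots of the set were called (0.782%), a share that was not computed for other hotspots. Within 1 kb the shares were 0.747% for STUS/Hum and 1.49% for Hum/SPRT, against backgrounds of 22.3 and 2.29% at that distance. STUS/Hum carries the STUS chromosome and lacks the B6 allele, and why few of these positions were called there was not tested. The same reservation on how alleles were assigned holds here.

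Sharing with B6/SPRT was most frequent just above a B6 fraction of 0, in the step that weak hotspots could hardly enter. It was 88.1% (85.4 to 90.3%) for B6 fractions above 0 and up to 1%, 73.3% up to 5%, 61.0% up to 10%, 54.8% up to 15%, 49.3% up to 20% and 52.8% (43.3 to 62.0%) below 25%. Those at exactly 0% stood at 77.9%. The 782 hotspots that were not called in B6/SPRT were weaker and less one-sided, with a median signal of 57.5 against 173 and a median B6 fraction of 4.44% against 1.47%. The nearest B6/SPRT hotspot was a median of 42.8 kb away from them, and for 12 of the 782 it lay within 1 kb.

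DMC1 signal moved with these shares, and the contrast with matched hotspots changed with it. When all 5588 B6-allele hotspots were divided by signal into 5 classes of equal size, the share called in B6/SPRT in the weakest class was 33.5% in the set and 15.5% in matched hotspots. The next classes had 53.1 against 32.1% and 68.4 against 58.1%. In the 2 strongest classes the order was the other way, at 78.5 against 87.8% and 86.4 (84.1 to 88.4%) against 99.2% (95.5 to 99.9%). In the strongest class, 133 of 980 hotspots of the set and 1 of 123 matched hotspots were missing from B6/SPRT. Within the set, hotspots below 5% were called more often than those at 5 to 25% in the 3 weaker classes (44.3 against 29.5%, 64.2 against 44.8% and 73.2 against 60.6%). In the upper 2 the shares were 78.3 against 79.0% and 86.2 against 88.1%, within each other's intervals.

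**Figure D4:**
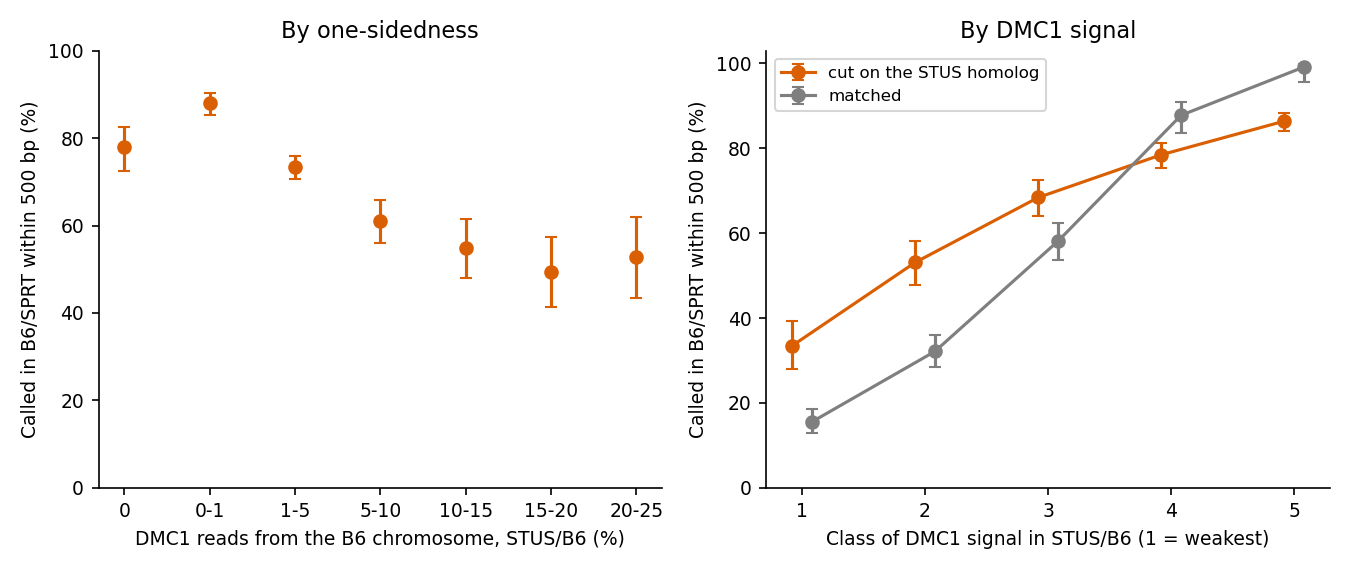
Percentage of B6-allele hotspots of STUS/B6 with a B6/SPRT hotspot within 500 bp, with 95% Wilson intervals. Left, hotspots cut on the STUS homolog in 7 steps of B6 fraction, from 88.1% down to 49.3%. Right, the same hotspots (orange) and matched hotspots (gray) in 5 classes of DMC1 signal, where the orange points lie above the gray in the 3 weaker classes and below in the 2 strongest.

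The strongest hotspots missing from B6/SPRT, chosen after their values were seen, lay within Eya4, Zdhhc14 and Phtf2. Eya4, a transcriptional coactivator and phosphatase gene, held one at chr10:23136054 (signal 832, B6 fraction 1.05%), with the nearest B6/SPRT hotspot 53.3 kb away. Zdhhc14, which encodes a protein palmitoyltransferase, held one at chr17:5570735 (775, 0.593%), with a distance of 53.1 kb. The Phtf2 hotspot at chr5:20789205 (753, 0.685%) was 113 kb from the nearest.

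Where both libraries gave a B6 fraction, few reads came from the B6 chromosome with the SPRET partner either. A fraction in B6/SPRT was listed for 1134 of the 2031 shared hotspots (55.8%, against 72.3% for matched hotspots). It was below 25% for 1043 of them (92.0%, 90.2 to 93.4%), where the background over all shared hotspots with a fraction was 57.0%. For hotspots matched in STUS/B6 the count was 134 of 700 (19.1%, 16.4 to 22.2%), and for those cut on B6 it was 34 of 178. The median fraction in B6/SPRT was 3.91% for the set and 46.7% for matched hotspots. The share was higher in the set on 19 of 19 autosomes (84.5 to 97.5% against 12.2 to 38.9%). It was also higher in each of the 5 signal classes, at 88.1 to 95.6% in the set and 9 to 41.5% in matched hotspots. More one-sided hotspots in STUS/B6 were more often one-sided in B6/SPRT, with 97.5% below 25% for fractions above 0 and up to 1% (n = 316) and 61.9% for 20 to 25% (n = 42). The rho between the fractions was 0.402 (n = 1134).

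The Uncx and Mir8120 hotspots were among the clearest, with B6 fractions in B6/SPRT of 0.880% and 0.183%. The Tmc1 hotspot had 0%. A further 70 hotspots of the set had 25 to 75% of their reads from B6 in B6/SPRT, and 21 had more than 75%. The 3 strongest of the 70 lay within Pdzd2 at chr15:12582374 (signal 635, 1.91% in STUS/B6 and 25.7% in B6/SPRT), Colec10, a collectin gene, at chr15:54451666 (529, 0.731 and 30.2%) and the collagen gene Col22a1 at chr15:71943692 (519, 0.700 and 39.5%). The next, named after its values were seen, was nearly as strong, at chr2:104214074 (518, 0.279 and 47.6%). The strongest of the 21 lay within Wdr70 at chr15:8005666, cut almost wholly on STUS in one hybrid (signal 717, 1.25%) and almost wholly on B6 in the other (signal 39.2, 97.5%). At chr5:117528452 within Ksr2, the gene of a scaffold of Ras signaling, the values were 15.7% (signal 418) and 97.8% (signal 23.7).

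H3K4me3 in B6/SPRT was biased in the same direction but less completely, over more hotspots than had a DMC1 fraction there. The H3K4me3 and DMC1 shares below 25% therefore do not cover the same hotspots. Of 2026 shared hotspots with at least 20 SNP-carrying H3K4me3 reads (median 205 reads), 998 (49.3%, 47.1 to 51.4%) had fewer than 25% from the B6 chromosome, against a background of 29.8%. Another 994 (49.1%) were at 25 to 75% and 34 were above. The median was 25.2% (quartiles 16.2 and 38.6%), where matched hotspots had 57.1% and 23 of 966 (2.38%) below 25%. The median was lower in the set on 19 of 19 autosomes (22.4 to 31.3% against 52.9 to 64.0%). By class of DMC1 signal it went from 35.4% in the weakest to 19.5% in the strongest, and matched hotspots had 48.8 to 60.3%. The mark in whole testis also comes from sources other than PRDM9, such as active promoters, and their part in these fractions was not tested.

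DMC1 and H3K4me3 fractions of B6/SPRT were related across the set (rho 0.680, n = 1132, pairs of values from the same genotype). The 1043 hotspots below 25% by DMC1 had a median H3K4me3 fraction of 19.4%, the 70 in the middle 49.8% and the 21 above 75% had 87.7%. At the Wdr70 site 86.1% of 144 H3K4me3 reads came from B6 (79.5 to 90.8%), and at Ksr2 91.2% of 274 (87.3 to 94.0%). The 897 shared hotspots with no DMC1 fraction in B6/SPRT had a median H3K4me3 fraction of 31.3%, and 34.3% of them were below 25%, against 66.2% of those below 25% by DMC1. The hotspots with a listed DMC1 fraction are therefore not typical of all 2031. By degree of one-sidedness in STUS/B6, the median H3K4me3 fraction in B6/SPRT was 17.5% for fractions above 0 and up to 1%, 25.8% up to 5%, 34.0% up to 10% and 46.8% at 20 to 25%, and it was 22.0% at exactly 0%.

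**Figure D5:**
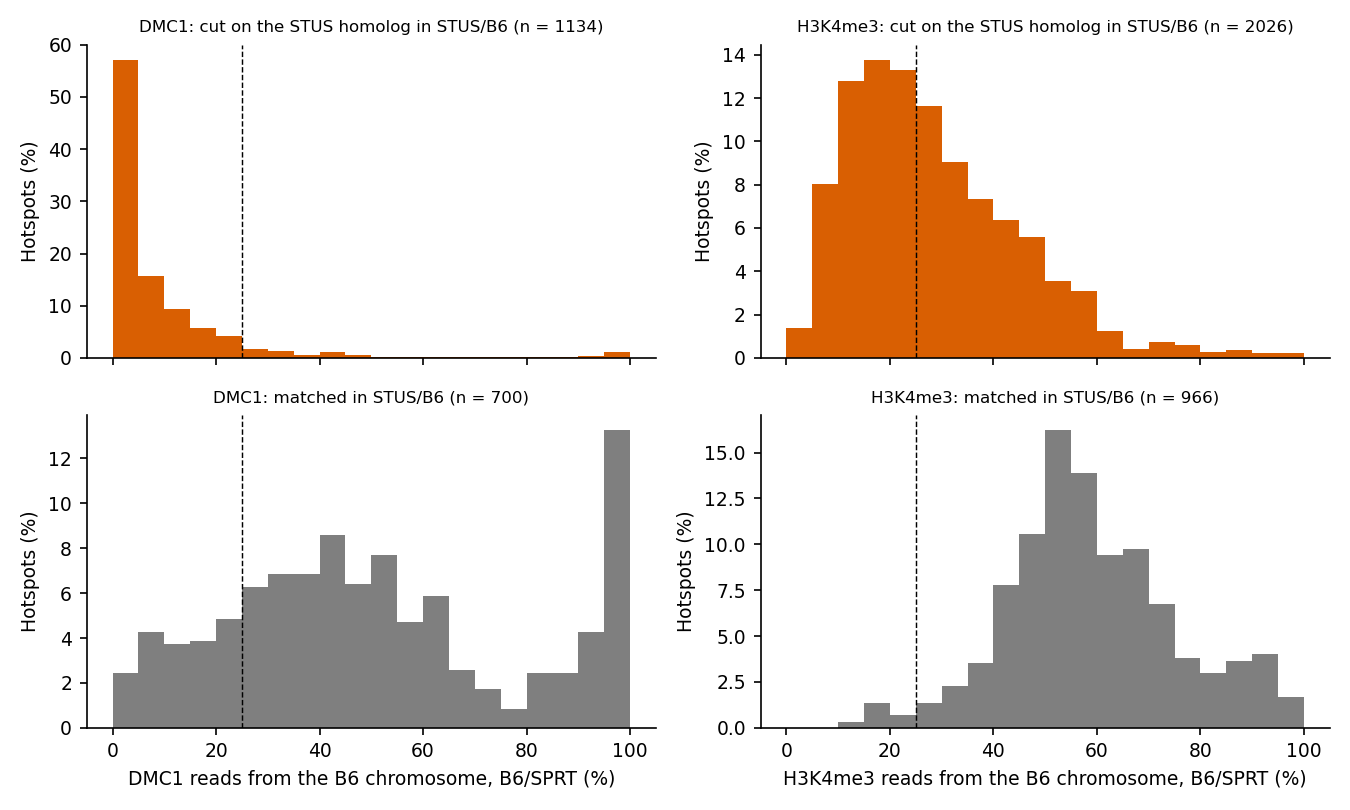
Percentage of DMC1 reads (left) and H3K4me3 reads (right) from the B6 chromosome in B6/SPRT, in steps of 5, for shared hotspots cut on the STUS homolog in STUS/B6 (top) and matched there (bottom), with the 25% limit dashed and vertical scales that differ between panels. DMC1 of the top set piles up near 0 (median 3.91%), H3K4me3 is broader (median 25.2%), and both are lower than in matched hotspots (46.7 and 57.1%).

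The total mark did not separate the sets as the DMC1 signal did. Median H3K4me3 enrichment over input in B6/SPRT was 6.23 in the set and 6.13 in matched hotspots, higher in the set on 9 of 19 autosomes. Median DMC1 signal in B6/SPRT was 70.3 against 28.3. That DMC1 signal divided by the enrichment had a median of 11.6 in the set and 5.38 in matched hotspots and was higher in the set on 19 of 19 autosomes. By class of STUS/B6 signal, this ratio went from 6.24 in the weakest to 18.4 in the strongest in the set and from 4.29 to 10.4 in matched hotspots. Enrichment itself was lower in the set than in matched hotspots in each class, from 4.38 against 4.68 in the weakest to 7.97 against 10.8 in the strongest.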

How the data were processed

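Hotspots were read from 1 table per genotype. The authors aligned reads with BWA to mm10 (names from the submitters' processing notes, versions not given in the sources used here), identified single-stranded fragments and called hotspots de novo. PRDM9 alleles were inferred by comparing mice, and SNPs placed reads on a homolog. The deposited DMC1 signal is the authors' caller value, and its scaling to depth is not given in the sources used here. The deposited B6 fraction lists no read number, and its depth is unknown. The H3K4me3 values used were the deposited ratio of enrichment over input in 1 kb windows, the deposited fraction from B6 and the deposited count of SNP-carrying reads behind it, each taken as pooled over samples. Tables were tied to genotypes by the alleles they name and by hotspot totals. A further 25 columns of values, among them p-values and sharing marks of the authors, were not used.

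Members had an autosome, the B6 allele and a B6 fraction below 25%. Hotspots were shared when the nearest centers lay within 500 bp. H3K4me3 fractions needed 20 reads. Gene positions and promoter sequences came from RefSeq (GRCm38.p6). Chromosome 18 was left out of gene-start counts, names and the search for the densest 1 Mb. No genome was used here, so no motif was searched for. Named hotspots were the 5 strongest, the strongest per class of B6 fraction in B6/SPRT, those nearest the limit, the closest pair, the densest 1 Mb and those in promoter windows. The members and lists were chosen with earlier results of these data known. Tables were handled with pandas 2.3.3 and numpy 2.4.6 in Python 3.11.15, intervals came from scipy 1.17.1 and plots from matplotlib 3.10.9, and the computations were tested on simulated data. Wilson 95% intervals cover counting error only.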

Additional observations from a re-analysis of the deposited data

How the results depend on the processing

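With 1 DMC1 library per genotype no value has a replicate check, and the depth behind each DMC1 fraction is unknown. No paired analysis was possible because no result comes from a test. The number of hotspots in the set, 2813, was 2340 with a limit of 10%, 3330 with 40% and 1988 at or above the B6-allele median signal. The ratio of medians by one-sidedness, 3.73, was 2.45 as a ratio of means, 3.45 with the steps divided at 10% and 4.16 without fractions of 0. Leaving out fractions of 0 favors strong hotspots among the most one-sided, since small fractions above 0 need many reads. The share called in B6/SPRT, 72.2%, was 68.6% at 250 bp, 83.4% weighted by signal, 76.2% for fractions below 10%, 81.7% for signals at or above the B6-allele median, and 33.5, 53.1, 68.4, 78.5 and 86.4% in the 5 signal classes from weak to strong. Its excess over matched hotspots, 26.8 percentage points, was 9.73 weighted by signal, 17.9 and 10.3 in signal classes 1 and 3, and reversed to -9.29 and -12.8 in classes 4 and 5 and to -0.70 at or above the median signal, and the cause was not tested. The share below 25% in B6/SPRT, 92.0%, was 94.1% weighted by signal, 94.9% for fractions below 10%, 90.2, 88.1, 89.8, 89.6 and 95.6% by signal class, 51.4% with missing fractions counted as not below, and 66.6% with them placed by H3K4me3. The H3K4me3 share, 49.3%, was 53.4% at 100 reads. Sharing within 1 kb was 0.747% with STUS/Hum and 1.49% with Hum/SPRT, and 0.427% with Hum/SPRT at 250 bp. The set's share of B6-allele hotspots became 75.1% by signal. Neighbors within 10 and 100 kb were 4.34 and 26.1%. Protein-coding genes alone held 53.0%. The signal classes, the excess over matched hotspots and the placing by H3K4me3 were chosen after seeing the data.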
